A study of Xenopus laevis with 16 samples.

Results

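The comparison sets the forkhead factor foxD5 given alone against the secreted protein Noggin given alone, in animal caps of Xenopus laevis. It uses 8 of the 16 arrays of the series, 4 for each treatment, and every probe set on the array other than 120 Affymetrix controls, which left 15491 of 15611. The members were taken from the labels only, and no measured value entered the choice. The question it addresses is which genes of the ectoderm, the neural plate and the mesoderm separate the treatments.

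Animal caps are explants of the blastula ectoderm, cut here at stages 8 to 9, and the total RNA of each pool of caps was hybridised to a single-colour array. In the first group, named foxD5 alone, embryos received 100 pg of foxD5 mRNA per cell at the 2-cell stage and their caps were cultured without Noggin. In the second, named Noggin alone, caps of uninjected embryos were cultured in 200 ng/ml Noggin. Caps of uninjected siblings without Noggin, here called untreated, and caps of foxD5-injected siblings in Noggin complete the series with 4 arrays each. The labels tie the untreated samples to foxD5 alone and the injected samples in Noggin to Noggin alone as siblings. They name no siblings across the groups compared, and whether these shared clutches is not stated. The part of treatment and that of clutch in the differences therefore cannot be told apart. The part of foxD5 and that of injection as such cannot be told apart, since no sample received another mRNA. The samples of foxD5 alone held 171, 135, 118 and 142 caps and those of Noggin alone 128, 136, 135 and 110 caps. Harvest stages ran from 11.5 to 13.0 in foxD5 alone and from 11.5 to 12.5 in Noggin alone. Samples 2 and 3 were taken at 12.5 to 13.0 in foxD5 alone and at 11.5 to 12.0 in Noggin alone. Samples 1 and 4 were at 11.5 to 13.0 and 11.5 to 12.5 in foxD5 alone, and at 11.5 to 12.5 and 12.0 to 12.5 in Noggin alone. No stage is given for the untreated samples. Stage thus differed in part along with treatment, and its part in the results was not tested.

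FoxD5, now named foxd4l1, is a transcription factor of the early neural ectoderm that keeps cells in an immature neural state. Noggin binds BMP ligands outside the cell and keeps them from their receptors, and caps freed of BMP signalling take a neural in place of an epidermal fate. One treatment therefore acts inside the nucleus on gene transcription, the other outside the cell on BMP ligands.

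The source field of the labels names a cochlea, while the descriptions name animal caps, and the descriptions were followed. Of 10 markers of the cap ectoderm, 8 were brighter than the median probe set, and 1 had mean signals under 16 in both groups. Mean signals were 2612 with foxD5 and 1889 with Noggin for sox11.S, 2043 and 1922 for cdh3.L, and 28.7 and 46.7 for cdh1.S. Of the 10 markers in that list 8 had a difference, foxD5 minus Noggin, below 0, 1 passed (cdh3.S, higher with Noggin) and the median was -0.29. Their mean level was 8.72 to 8.96 on the log2 scale in foxD5 alone and 9.04 to 9.34 in Noggin alone, without overlap, and its part in the results was not tested. Only 3 of 14 inner ear genes were measured, and 2 were below the 16 that was added before taking logarithms in both groups. These were pax8.L, with mean signals of 9.75 and 5.44, and pax2.L, with 13.9 and 13.6. The third was brighter than the median probe set and differed by 0.09. Array medians on the log2 scale ranged from 5.79 to 6.35 over the 16 arrays, and arrays of a group correlated at 0.923 or more. Before normalisation, sample 2 of foxD5 alone had a median of 6.25, against 5.79 to 5.96 on the other arrays compared. Its share of probe sets with signals under 16 was 20.5%, against 26.8% to 33.0% on those arrays. Fits without it are described further on. Sample 2 of Noggin alone had the highest mean level of its group in the epidermal lists described further on, and the lowest in the neural fate list. For some epidermal genes sample 1 was high as well. In pooled tissue, fewer cells of a type and less RNA per cell cannot be told apart.

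With limma and Benjamini-Hochberg adjustment over all probe sets, 80 of 15491 (0.516%) differed between foxD5 alone and Noggin alone at an adjusted p of 0.05 or less. Of these, 37 (0.239%) were higher with foxD5 and 43 (0.278%) higher with Noggin. Their log2 differences, taken on quantile-normalised log2(signal + 16), were 0.73 to 2.55 in size, and 53 passed 2-fold. A gene symbol was given for 58 of the 80 probe sets, 3 had several symbols and 19 had none, and the 58 covered 53 genes. In 78 of the 80 all 4 arrays of one group lay above all 4 of the other, which held for 1197 of all 15491 (7.73%), 635 with foxD5 higher (4.10%) and 562 with Noggin higher (3.63%). At an unadjusted p under 0.05 there were 2086 probe sets (13.5%). The number of calls moved with the arrays used. Leaving out sample 3 or 4 of foxD5 alone or sample 1 of Noggin alone left 1 probe set in each case. Without sample 2 or 3 of Noggin alone 2 and 5 passed, and all of these were among the 80. Without sample 2 of foxD5 alone 46 passed, 39 of them among the 80, and without sample 4 of Noggin alone 59, with 42 among the 80. Without sample 1 of foxD5 alone the count was 149, with 69 among the 80. A fit on the 8 arrays alone with limma called 0 probe sets and gave 1950 with an unadjusted p under 0.05. All 80 kept their direction in each of these fits, which is no sign of stability. With 78 of them free of overlap, leaving out 1 array could hardly turn a direction. The fit on the 8 arrays used the same group means.

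The largest difference was in pim1.L, which encodes a serine/threonine kinase that promotes cell survival. Its deposited signal was 28.1, 64.3, 74.8 and 62.2 in samples 1 to 4 of foxD5 alone, and 425, 753, 226 and 361 in those of Noggin alone. Every array of Noggin alone was thus at least 3 times as bright as any of foxD5 alone. The log2 difference, foxD5 minus Noggin, was -2.55 ± 0.30 (SE; limma, adjusted p = 0.00149), or 5.84-fold lower with foxD5. It passed in each of the 8 fits that left out 1 array. A second pim1.L probe set did not share it, with a difference of -0.03 ± 0.21 and mean signals of 194 with foxD5 and 191 with Noggin.

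Next in size among the genes higher with Noggin was rassf3.S, which encodes a protein with a Ras-association domain. Its signal was 104, 87.2, 81.2 and 83.3 with foxD5 and 287, 758, 227 and 248 with Noggin. Sample 2 of Noggin alone was the highest by far, and the groups did not overlap. The difference was -1.74 ± 0.36 (limma, adjusted p = 0.0388). The second rassf3.S probe set gave -0.58 ± 0.31 and did not pass.

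Among the genes of the ectoderm, grhl3.L separated the treatments most clearly. It encodes Grainyhead-like 3, a transcription factor of the surface ectoderm and epidermis. Its signal was 293, 278, 264 and 298 in the samples of foxD5 alone, a narrow range. In Noggin alone it was 1049.6, 1105, 595 and 526, so samples 1 and 2 were higher than samples 3 and 4 but each lay above all of foxD5 alone. The difference was -1.38 ± 0.23 (limma, adjusted p = 0.0171), or 2.60-fold lower with foxD5. The untreated caps had a mean of 673 ± 175 (SD, n = 4), nearer to the 819 ± 301 of Noggin alone than to the 283 ± 15.3 of foxD5 alone.

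The gene fgfr4.S, for an FGF receptor, had signals of 55.2, 21.2, 43.5 and 34.3 with foxD5 and 113, 177, 81.6 and 113 with Noggin. The groups did not overlap, and the difference was -1.40 ± 0.28 (limma, adjusted p = 0.0317). Its homeolog fgfr4.L differed by -0.98 ± 0.24 without passing (limma, adjusted p = 0.0685).

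The gene fzd7.L, for a Frizzled receptor of Wnt ligands, had signals of 359.7, 237, 417 and 274 with foxD5 and 799, 669.5, 799 and 1017 with Noggin. The lowest array of Noggin alone exceeded the highest of foxD5 alone, and the difference was -1.3 ± 0.20 (limma, adjusted p = 0.0171). A second probe set of the same gene gave -0.92 ± 0.23 (limma, adjusted p = 0.0706), and the other 3, all dim, lay between -0.32 and -0.07.

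One probe set of bmpr1a.L, which encodes a type I BMP receptor, had signals of 94.5, 92.8, 85.8 and 128 with foxD5 and 214, 189, 213 and 217 with Noggin. All 4 arrays of Noggin alone were higher, and the difference was -1.0 ± 0.19 (limma, adjusted p = 0.0286). Its other 2 probe sets gave -0.93 and -0.77, which did not pass (limma, adjusted p = 0.0519 and 0.0626). A further probe set, annotated to both homeologs, passed at -0.92. The probe set of the homeolog bmpr1a.S alone gave 0.03 ± 0.18 (95% interval -0.36 to 0.42).

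The gene cdh3.S, for the C-cadherin that holds blastomeres together, had signals of 297, 437, 295 and 306 with foxD5 and 542, 776, 759 and 704 with Noggin. The groups did not overlap and the difference was -0.98 ± 0.20 (limma, adjusted p = 0.0388). The homeolog cdh3.L, with mean signals of 2043 and 1922, differed by 0.10 ± 0.18 and did not pass. Whether a probe set separates the RNAs of both homeologs was not tested.

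The gene ccne1.L, for cyclin E, which drives entry into S phase, had signals of 390.1, 260.2, 183 and 207 with foxD5 and 605, 654, 705 and 520.3 with Noggin. Its difference was -1.22 ± 0.25 (limma, adjusted p = 0.0388), 2 of its 3 probe sets passed, and the groups did not overlap. The gene cdca7.L, for a cell-division-associated protein, differed by -1.32 ± 0.28 (limma, adjusted p = 0.0425), and its second probe set gave 0.13. It passed in none of the 8 fits that left out 1 array, where adjusted p values from limma were 0.051 to 0.117. For rbm7.L, an RNA-binding protein of the nuclear exosome pathway, signals were 368, 200.2, 321 and 138 with foxD5 and 616, 705, 822 and 678 with Noggin, and the difference was -1.46 ± 0.24 (limma, adjusted p = 0.0171). No array of foxD5 alone reached the lowest array of Noggin alone for either gene. The remaining named genes of this direction were tnpo1.L, a nuclear import receptor (-1.49 ± 0.33), and lmbr1l.L, a membrane protein (-1.26 ± 0.23). They were joined by slc25a29.L, a mitochondrial carrier of basic amino acids (-1.21 ± 0.26), and klf2.S, a zinc finger transcription factor (-1.18 ± 0.25). These 4 passed with limma at adjusted p values of 0.0489, 0.0252, 0.0425 and 0.0396.

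**Figure D1:**
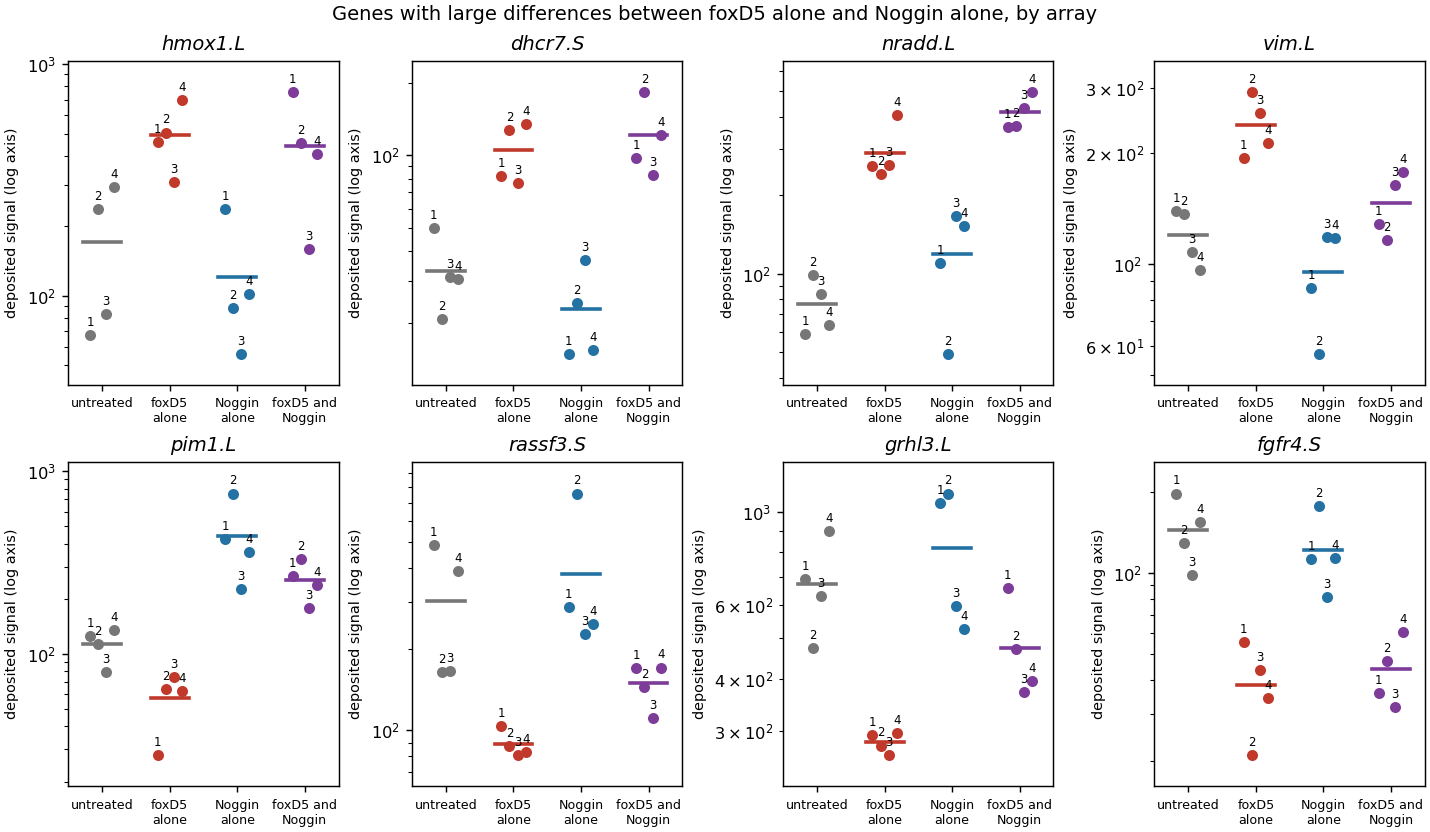
Deposited signal of 8 genes that passed, on a log axis, for each array of the 4 groups, with the array's number beside its point and a bar at the group mean. In the upper row foxD5 alone lies above Noggin alone, and in the lower row, which starts with pim1.L, all 4 arrays of Noggin alone lie above all 4 of foxD5 alone.

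Among the genes with a symbol that passed as higher with foxD5, hmox1.L showed the largest difference. It encodes heme oxygenase 1, which breaks down heme and is induced by oxidative stress in many cells. Its signal was 461, 506, 308 and 695 with foxD5 and 237, 88.4, 56.2 and 101 with Noggin. Sample 1 was the highest of Noggin alone, below sample 3, the lowest of foxD5 alone, and the difference was 1.98 ± 0.43 (limma, adjusted p = 0.0425). It passed in none of the 8 fits that left out 1 array, where adjusted p values from limma were 0.0549 to 0.127. The dim homeolog hmox1.S had mean signals of 2.94 and 8.39 and did not pass.

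The gene dhcr7.S, for the enzyme of the last step of cholesterol synthesis, was dim with Noggin and brighter with foxD5. Its signals were 81.8, 127, 76.4 and 135 with foxD5 and 14.9, 24.3, 36.5 and 15.5 with Noggin, without overlap. The difference was 1.60 ± 0.31 (limma, adjusted p = 0.0295).

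The gene nradd.L, for a death domain protein related to the neurotrophin receptor, had signals of 259, 241, 261 and 406 with foxD5 and 109.9, 49.5, 166 and 152 with Noggin. Sample 4 was well above the other 3 of foxD5 alone, and the groups did not overlap. The difference was 1.22 ± 0.25 (limma, adjusted p = 0.0388).

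The gene vim.L encodes vimentin, an intermediate filament protein of mesenchyme and of neural progenitors. Its signals were 194, 292, 257 and 213 with foxD5 and 86.4, 57.3, 118 and 118 with Noggin, again without overlap. The difference was 1.2 ± 0.21 (limma, adjusted p = 0.0199), and the homeolog vim.S gave 0.75 ± 0.47 and did not pass.

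The gene hes7.2.L, for a repressor of the Hes family, was listed at 40.0, 33.1, 59.0 and 51.2 with foxD5 and 9.43, 12.5, 0.962 and 2.46 with Noggin, where all arrays were under the 16 added before taking logarithms. One of its 2 probe sets passed, with a difference of 1.39 ± 0.30 (limma, adjusted p = 0.0433), and the other gave 0.66 ± 0.30. The related hes7.1.L had signals of 234, 169.8, 186 and 304 with foxD5 and 62.9, 3.42, 33.4 and 31.5 with Noggin. Its groups did not overlap, but the difference of 2.35 ± 0.55 missed the threshold (limma, adjusted p = 0.0632).

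Some of the genes higher with foxD5 parted its own 4 arrays. For cul3.S, the scaffold of a family of ubiquitin ligases, signals were 503, 567, 1150.0 and 1404 with foxD5 and 339, 256, 306 and 308 with Noggin. Samples 3 and 4 of foxD5 alone were over 2 times as bright as samples 1 and 2, and all 4 stayed above Noggin alone. The difference was 1.41 ± 0.26 (limma, adjusted p = 0.0252). The same samples were the brighter ones for zbtb33.S, which encodes the methyl-DNA-binding repressor Kaiso, at 318, 374, 1134 and 835 with foxD5 and 206, 188, 147 and 149.8 with Noggin. Its difference was 1.66 ± 0.35 (limma, adjusted p = 0.0402), and its other 2 probe sets gave -0.31 and 0.13. For gkap1.L, a Golgi protein that anchors a protein kinase, the difference was 1.19 ± 0.22 (limma, adjusted p = 0.0252), and that of its homeolog gkap1.S was 1.2 ± 0.29 (limma, adjusted p = 0.0650).

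The remaining genes of the 12 largest differences in this direction were enzymes and nuclear proteins. The gene pygm.S, for a glycogen phosphorylase, differed by 1.73 ± 0.36 (limma, adjusted p = 0.0404), with dim signals of 6.72, 3.22, 33.2 and 31.8 in Noggin alone and a second probe set at -0.20 ± 0.33. The gene aldh9a1.S, for an aldehyde dehydrogenase, differed by 1.21 ± 0.25 (limma, adjusted p = 0.0366). The gene surf6.L, for a nucleolar protein, differed by 1.24 ± 0.22, and cwc27.S, for a cyclophilin of the spliceosome, by 1.27 ± 0.23 (limma, adjusted p = 0.0250 and 0.0199). Those for aldehyde dehydrogenase, the nucleolar protein and the cyclophilin had 1 probe set each, and all arrays of foxD5 alone lay above those of Noggin alone.

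Calls were seldom shared by all probe sets of a gene. Of the 53 genes, 27 had several probe sets; all of them shared the direction in 19 of these genes and all passed in 0. A homeolog was measured for 16 of the 53 genes, of which 10 had the same direction and 0 passed, with adjusted p values from limma of 0.0650 or more.

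Known genes were then grouped in 23 lists, each gene represented by its brightest probe set. The lists share some genes, which are counted in each. Over all 7531 genes with 1 symbol, 20 passed as higher with foxD5 and 21 as higher with Noggin, and the median difference was 0.02. Of these genes, 645 were higher with foxD5 and 487 with Noggin at an unadjusted p under 0.05, against 6.94% and 6.53% of all probe sets. No list had more than 1 member that passed by its brightest probe set. With so few passing over all genes, a list of 3 to 47 measured genes would seldom hold any. A list without a call is therefore no result about its members.

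The transcription factors of the non-neural ectoderm, which set up epidermis under BMP signalling, had the lowest median of the 23 lists, a rank that was lost without sample 2 of Noggin alone. Of 23 measured members, 1 passed, grhl3.L, and 18 had a difference below 0. The median was -0.60, against 0.02 over all genes. At an unadjusted p under 0.05, 8 members were higher with Noggin and 1 with foxD5, against 487 and 645 of all 7531 genes. Values of the members that did not pass, named here after they were seen, spread widely among the arrays of Noggin alone. For klf17.L, a Krüppel-like factor of the epidermis, signals were 200.0, 184, 218 and 225 with foxD5 and 1011, 1174, 295 and 316 with Noggin, a difference of -1.40 ± 0.43 (limma, adjusted p = 0.141). Samples 1 and 2 of Noggin alone were more than 3 times as bright as samples 3 and 4, which were still above foxD5 alone. For gata2.L, a GATA factor of the epidermis, signals were 68.7, 96.9, 57.3 and 43.4 with foxD5 and 259.9, 462, 94.9 and 84.1 with Noggin, which overlap as deposited (limma, adjusted p = 0.174). For foxi1.L, which ionocytes need, the signals of 16.3, 7.1, 28.8 and 15.1 and 104, 165, 25.3 and 27.8 overlapped as well (limma, adjusted p = 0.139). The same pair of samples was the brighter for both genes.

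The mean level of these 23 genes on each array shows that division. It was 6.12 to 6.48 in the 4 samples of foxD5 alone, on the log2 scale, and 6.99, 7.86, 6.41 and 6.27 in samples 1 to 4 of Noggin alone. Samples 3 and 4 of Noggin alone thus lay within the range of foxD5 alone, and sample 2 was above all 4 untreated samples, which were at 6.71 to 7.71. Without sample 2 of Noggin alone the median difference of the list was -0.16, with 17 of 23 members below 0. That was nearer to 0 than the medians of the animal cap ectoderm markers (-0.30), the neural fate factors (-0.28) and the border genes (-0.19) in the same fit.

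Keratins, the filament proteins of epidermis, gave no call, where 20 and 21 of all 7531 genes passed as higher with foxD5 and with Noggin. None of the 23 measured keratins passed with limma, 12 had a difference above 0 and 11 below, and the median was 0.05. Their mean level was 6.94 in sample 2 of Noggin alone, and 5.87 to 6.28 in the other 3, against 5.94 to 6.31 in foxD5 alone. For krt12.4.L, an epidermal keratin, mean signals were 59.5 ± 24.5 with foxD5 and 475 ± 832 with Noggin (SD, n = 4), and the groups overlapped. The keratins with the smallest p values were krt17.S (-0.72 ± 0.25), under 16 on all 8 arrays, and krt19.S (0.48 ± 0.25). Epithelial junction and secreted genes gave a median of -0.07 over 24 members. For cldn4.L, a claudin of tight junctions, signals were 2589.7, 1958, 3659 and 3135 with foxD5 and 3854, 5652, 4344 and 3004 with Noggin, a difference of -0.61 ± 0.20 (limma, adjusted p = 0.174), and menf.1.L differed by -1.27 ± 0.63 with overlap. Ionocyte and ciliated cell genes had a median of -0.30 over 15, which was -0.15 without sample 2 of Noggin alone, and 9 of them were under 16 in both groups. The smallest p values were those of tekt2.S, for a tektin of cilia (-0.64 ± 0.20), under 16 on all 8 arrays, and of the forkhead gene foxn4.S (-0.43 ± 0.23), and neither passed.

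**Figure D2:**
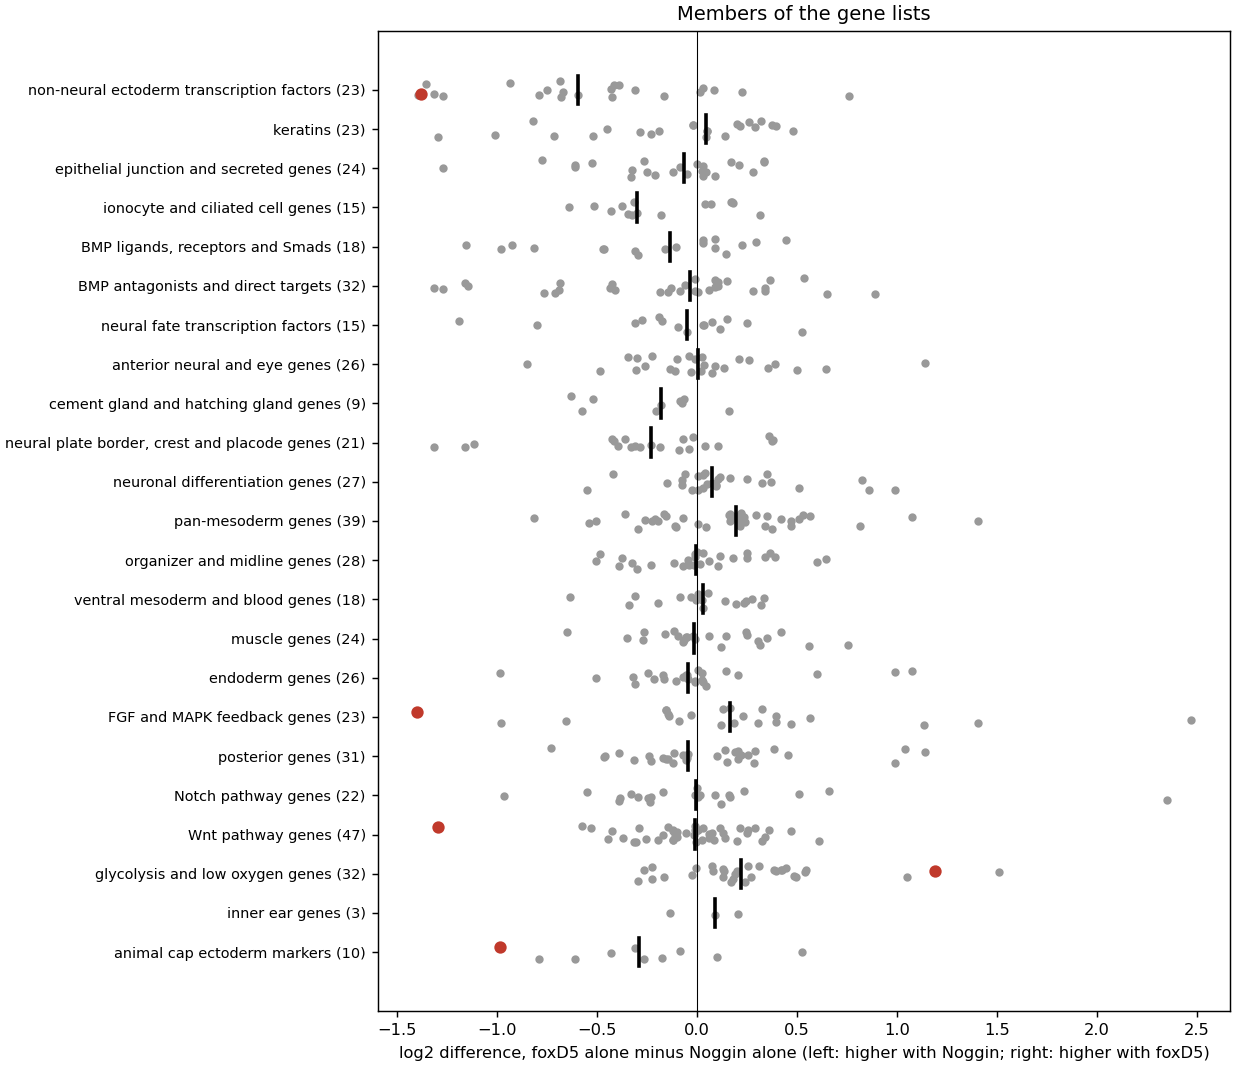
Log2 difference, foxD5 alone minus Noggin alone, of each measured gene in 23 lists, by its brightest probe set, with list sizes in brackets and a black bar at the list's median. Red points passed in limma; the median of the non-neural ectoderm transcription factors, -0.60, lies farthest from 0.

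BMP pathway genes were looked at because Noggin acts on BMP ligands. Of 18 ligands, receptors and Smads 0 passed by their brightest probe set with limma. At an unadjusted p under 0.05, 3 were higher with Noggin and 0 with foxD5, against 487 and 645 of all 7531 genes. The median was -0.13. It was -0.05 without sample 4 of foxD5 alone and -0.06 without sample 3 of Noggin alone. For bmp7.2.L, a ligand of the Bmp7 family, signals were 231, 225, 321 and 228 with foxD5 and 545, 1430.4, 408 and 371 with Noggin. Sample 2 of Noggin alone was again the highest, the groups did not overlap, and the difference of -1.16 ± 0.33 did not pass (limma, adjusted p = 0.116). Without that sample it was -0.84.

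Of 32 BMP antagonists and direct targets 0 passed with limma, and the median was -0.04. An unadjusted p under 0.05 was found for 2 higher with foxD5 and 5 higher with Noggin, against 645 and 487 of all 7531 genes. Of these 5, gata2.L, msx1.L and msx2.L are also counted among the non-neural ectoderm factors, and msx1.L among the border genes. Direct targets went both ways. For smad7.L, the inhibitory Smad that BMP signalling induces, signals were 1039, 1029, 784 and 598 with foxD5 and 1594, 3241, 2109.5 and 1302 with Noggin, without overlap, and the difference was -1.16 ± 0.30 (limma, adjusted p = 0.0812). The homeobox gene ventx1.1.L, a ventral target of BMP, had signals of 40.9, 32.0, 48.8 and 40.4 with foxD5 and 84.2, 125, 138 and 71.9 with Noggin, and its difference was -1.15 ± 0.28 (limma, adjusted p = 0.0685). For its relative ventx2.2.L the sign was opposite, with 103, 154, 145 and 131 with foxD5 and 106, 47.4, 52.9 and 51.9 with Noggin, a difference of 0.89 ± 0.25 (limma, adjusted p = 0.118). Only sample 1 of Noggin alone reached the range of foxD5 alone for ventx2.2.L. The homeobox gene msx1.L, a BMP target of the neural plate border, had signals of 11.8, 32.6, 14.9 and 15.4 with foxD5 and 59.9, 180.1, 36.7 and 33.0 with Noggin and a difference of -1.32 ± 0.35 (limma, adjusted p = 0.0925). Without sample 2 of Noggin alone it was -0.89. Log2 differences from untreated caps, which are not labelled as siblings of Noggin alone, were 0.03 with foxD5 and 1.18 with Noggin for ventx1.1.L. In the same order they were -0.78 and 0.38 for smad7.L, 0.38 and -0.51 for ventx2.2.L, and -1.55 and -0.24 for msx1.L. The level of ventx1.1.L in foxD5 alone was thus near that of untreated caps, and that in Noggin alone was higher. The reason was not tested.

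The neural fate transcription factors, a list that includes the injected gene, gave no call. Over all 7531 genes, 20 passed as higher with foxD5 and 21 as higher with Noggin. Of 15 measured members 0 passed with limma, 7 had a difference above 0 and 8 below, and the median was -0.05. The injected gene itself did not mark the injected samples: foxd4l1.1.S had signals of 38.1, 95.7, 44.8 and 134 in foxD5 alone and 59.1, 11.3, 39.6 and 255 in Noggin alone, with complete overlap. Whether its probes lie within the injected RNA is not given in the sources used here, so this does not check the labels. The second probe set of the family, foxd4l1.2.L, was under 16 in nearly every sample, with means of 5.86 and 9.5.

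The zinc finger gene zic1.S, an early neural plate and border factor, showed the largest difference of the list, with 207, 208, 169.7 and 203 with foxD5 and 466, 155, 619.8 and 1043 with Noggin. In 3 of 4 samples of Noggin alone it was more than 2 times as bright as in any of foxD5 alone, while sample 2 was below all of them. The difference was -1.19 ± 0.37 (limma, adjusted p = 0.141), and -1.59 without sample 2 (limma, adjusted p = 0.0553). For sox3.S, a SoxB1 factor of neural progenitors, signals were 1016, 887, 953 and 1052 with foxD5 and 1387, 704, 1382 and 1726 with Noggin, and sample 2 was again the only one of Noggin alone below foxD5 alone. The difference was -0.31 ± 0.26 (95% interval -0.87 to 0.24; limma, adjusted p = 0.666).

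Other members followed that split of the Noggin samples. For zic2.L, a second Zic factor, signals were 554, 637, 417 and 383 with foxD5 and 433, 169, 688 and 817 with Noggin. For gmnn.L, which encodes geminin, a protein that restrains both DNA replication and neural differentiation, they were 704, 549.8, 568 and 521 with foxD5 and 645, 215, 848 and 788 with Noggin. Sample 2 was the lowest of Noggin alone for both genes, below every sample of foxD5 alone. The 95% interval of the difference was -0.73 to 0.96 for zic2.L and -0.65 to 0.80 for gmnn.L, and differences inside these intervals were not detectable with these arrays. For sox2.L, the SoxB1 factor of the neural plate, signals were 89.1, 113, 86.6 and 150.2 with foxD5 and 76.5, 35.3, 156 and 111 with Noggin, and the interval was -0.38 to 0.88.

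Remaining members had small differences with like intervals. The SoxC factor sox11.S differed by 0.52 ± 0.25 (95% interval -0.01 to 1.05), sox15.L by -0.05 ± 0.22 (-0.51 to 0.41), zic2.S by -0.09 ± 0.32 (-0.77 to 0.58) and gmnn.S by 0.03 ± 0.35 (-0.71 to 0.76). Of the Iroquois factors, irx1.L differed by -0.80 ± 0.27 (limma, adjusted p = 0.179), irx2.L by -0.19 ± 0.23 and irx3.L by 0.04 ± 0.24.

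The mean level of the 15 genes was 7.62 to 7.66 in foxD5 alone, so its 4 samples were nearly level. It was 7.77, 7.08, 7.99 and 8.23 in samples 1 to 4 of Noggin alone. The other 3 Noggin samples were above, and sample 2 below, every sample of foxD5 alone. Without sample 2 the median difference was -0.28 and 12 of 15 members were below 0.

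**Figure D3:**
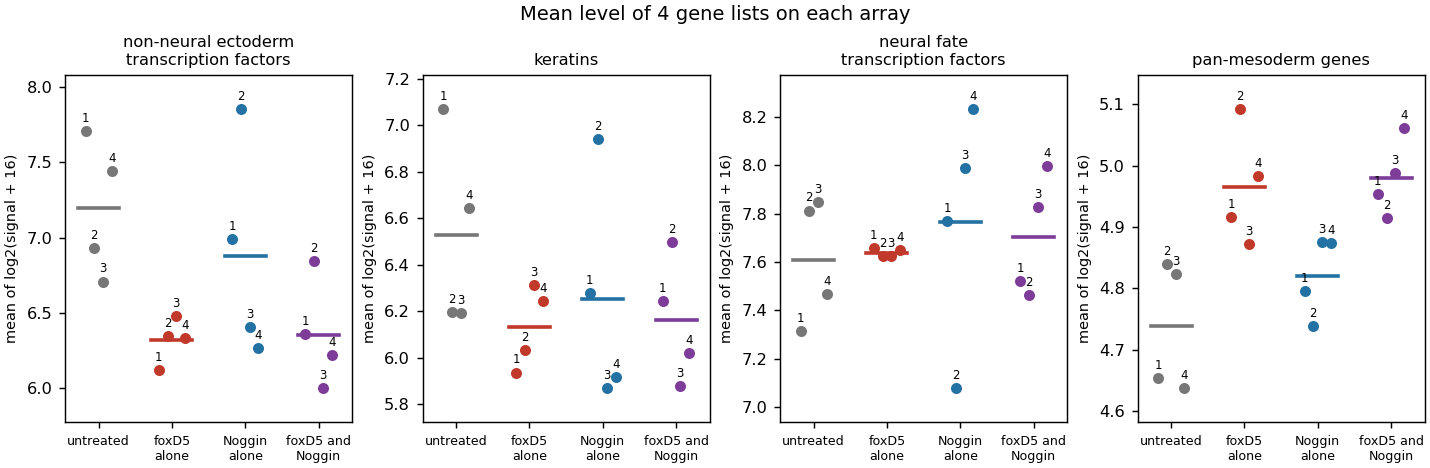
Mean of log2(signal + 16) over the measured genes of 4 lists on each array, by group, with the array's number beside its point and a bar at the group mean. Sample 2 of Noggin alone is the highest of its group for the non-neural ectoderm factors, at 7.86, and for the keratins, and the lowest for the neural fate factors, at 7.08.

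Other neural lists gave no call either, against the same 20 and 21 of all 7531 genes. Anterior neural and eye genes had a median of 0.00 over 26 members, of which 0 passed with limma. Against 645 and 487 of all 7531 genes, 2 members were higher with foxD5 and 1 with Noggin at an unadjusted p under 0.05. Among them foxb1.S, a forkhead gene of the neural tube, had signals of 78.1, 86.4, 51.2 and 159 with foxD5 and 24.6, 8.82, 33.1 and 59.0 with Noggin, and lhx5.S, a LIM homeobox gene of the forebrain, had 172, 108, 96.3 and 91.2 and 271, 167, 144 and 312. Their differences had opposite signs, 1.14 ± 0.38 and -0.85 ± 0.25, with a single array reaching the range of the other group for foxb1.S (limma, adjusted p = 0.175 and 0.127). For hesx1.L, a homeobox repressor of the anterior neural plate, signals were 58.3, 74.6, 36.4 and 44.3 with foxD5 and 33.8, 23.2, 17.4 and 26.6 with Noggin, without overlap, and the difference was 0.64 ± 0.20 (limma, adjusted p = 0.138). Neuronal differentiation genes had 20 of 27 members above 0 but a median of 0.07, and 16 members were under 16 in both groups. The RNA-binding protein gene elavl3.L, an early neuronal marker, had signals of 24.2, 45.1, 18 and 20.0 with foxD5 and 1.1, 2.43, 1.64 and 12.9 with Noggin, without overlap (limma, adjusted p = 0.0925). For tubb2b.S, a neuronal beta-tubulin, they were 210.2, 163, 137 and 187 and 67.8, 148, 101 and 49.7 (limma, adjusted p = 0.180).

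Neural plate border, crest and placode genes had 16 of 21 members below 0 and a median of -0.23. None passed with limma. Against 487 and 645 of all 7531 genes, 3 members were higher with Noggin and 0 with foxD5 at an unadjusted p under 0.05. These were msx1.L, prdm1.S and ets1.L. For prdm1.S, a repressor of the border and the prechordal region, signals were 77.3, 56.2, 65.4 and 33.8 with foxD5 and 226, 149.7, 107 and 102 with Noggin (limma, adjusted p = 0.0648). For ets1.L, an Ets factor of the cardiac crest, they were 128, 105, 95.0 and 75.6 with foxD5 and 189, 187, 303 and 255 with Noggin (limma, adjusted p = 0.0758). Neither gene overlapped between the groups. The cement gland, which weak BMP inhibition induces, was marked in 1 of the 8 samples compared: ag1.L had signals of 30.6, 43.3, 69.8 and 58.6 with foxD5 and 64.1, 656, 16.5 and 32.4 with Noggin. The differences of ag1.L and its homeolog ag1.S, -0.63 and -0.58, were 0.06 and 0.05 without that sample. The list's mean level was 6.03 in sample 2 of Noggin alone and 4.60 to 4.76 in the other 3. High levels were also seen without Noggin, at 5.57 in untreated sample 1, and with both treatments, at 5.45 in sample 2. The mean signal of ag1.L was 174 in untreated caps and 192 in Noggin alone.

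**Figure D4:**
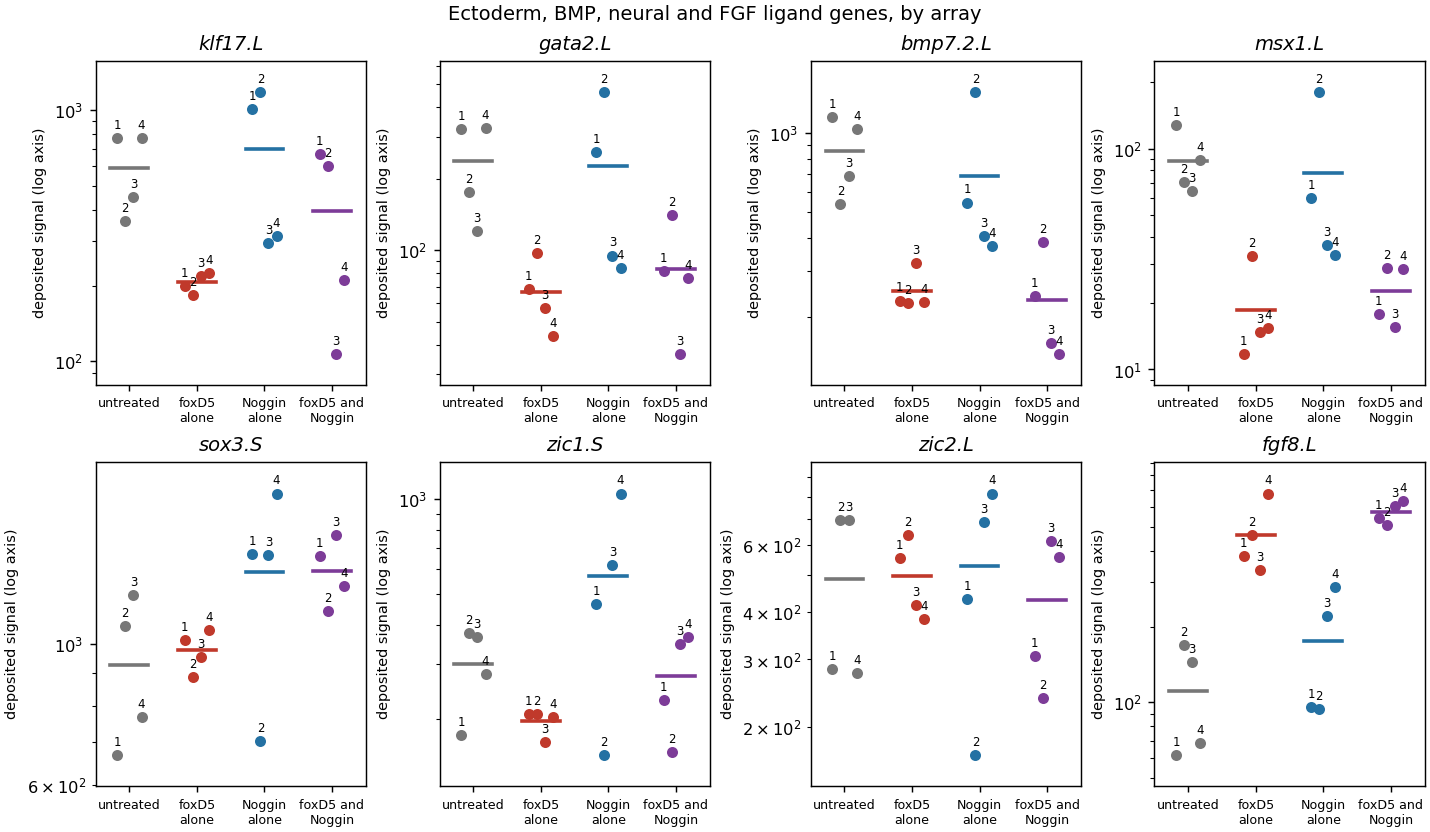
Deposited signal of 8 epidermal, BMP, neural and FGF ligand genes on a log axis, by array and group, with the array's number beside its point and a bar at the group mean. None of the 8 passed in limma; for zic1.S sample 2 of Noggin alone, at 155, lies under every sample of foxD5 alone, and for klf17.L, gata2.L, bmp7.2.L and msx1.L it is the highest of the 8 arrays.

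Mesoderm genes gave no call with limma in any of 4 lists, where 20 and 21 of all 7531 genes passed as higher with foxD5 and with Noggin. Pan-mesoderm genes had 25 of 39 members above 0 and a median of 0.20, which was 0.11 without sample 1 and 0.09 without sample 2 of foxD5 alone. Of the 39, 26 were under 16 in both groups. At an unadjusted p under 0.05, 4 were higher with foxD5 and 1 with Noggin, against 645 and 487 of all 7531 genes. The smallest p values were those of the FGF ligand gene fgf8.L and of gdf3.S, for a TGF-beta family ligand. For fgf8.L signals were 382, 463, 336 and 678 with foxD5 and 95.4, 94.2, 221 and 288 with Noggin, without overlap. Samples 1 and 2 of Noggin alone were much lower than samples 3 and 4, and the difference of 1.40 ± 0.33 did not pass (limma, adjusted p = 0.0650). For gdf3.S signals were 28.2, 80.4, 25.2 and 56.3 with foxD5 and 22.2, 8.63, 18.6 and 18.2 with Noggin, without overlap, and the difference was 0.82 ± 0.24 (limma, adjusted p = 0.129). For vegt.L, which specifies endoderm and mesoderm from maternal RNA, signals were 695, 638, 432 and 622 with foxD5 and 185, 119, 444 and 546 with Noggin, named after they were seen. Samples 3 and 4 of Noggin alone lay in the range of foxD5 alone (limma, adjusted p = 0.218).

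Defining mesoderm genes were dim. The T-box gene tbxt.S, for Brachyury, had mean signals of 27.6 with foxD5 and 9.76 with Noggin and a difference of 0.51 ± 0.27, and its groups overlapped. For myod1.S, the muscle determination factor, means were 36.9 and 24.9. The forkhead gene foxa4.L of the organizer and endoderm had mean signals of 14.3 and 3.34 (0.60 ± 0.17), and gata5.S, a GATA factor of the endoderm, 7.43 and 29.8 (-0.99 ± 0.24; limma, adjusted p = 0.0700). Of the other members with the smallest p in their lists, foxf1.L of the lateral plate differed by -0.64 ± 0.24, the T-box gene tbx20.L by -0.34 ± 0.18, the myosin light chain gene myl4.L by -0.65 ± 0.22 and the troponin gene tnnc1.S by 0.56 ± 0.20. None of these 6 genes passed with limma. Organizer and midline genes had a median of -0.00 over 28, ventral mesoderm and blood genes 0.03 over 18, muscle genes -0.02 over 24 and endoderm genes -0.05 over 26. Their mean levels per array ranged from 4.74 to 4.98 in foxD5 alone for the organizer list, against 4.76 to 4.91 in Noggin alone. In the endoderm list the range was 4.87 to 4.93 with foxD5 and 4.82 to 4.95 with Noggin.

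Signalling lists beyond BMP held 1 call each in FGF, Wnt and glycolysis genes. The FGF and MAPK feedback list had a median of 0.16 over 23 members, with fgfr4.S passing. Against 645 and 487 of all 7531 genes, 4 members were higher with foxD5 and 3 with Noggin at an unadjusted p under 0.05. Of the 4, fgf8.L and fgf20.L are also counted among the pan-mesoderm genes. Those higher with Noggin were fgfr4.S, fgfr4.L and dusp1.L, for a phosphatase that switches off MAP kinases (-0.66 ± 0.21; limma, adjusted p = 0.152), and none of them overlapped between the groups. The homeolog dusp1.S differed by 0.19 ± 0.23 and did not pass (limma, adjusted p = 0.79). Those higher with foxD5 included fgfr2.L, another FGF receptor, at 132, 181, 218 and 228 with foxD5 and 80.9, 90.5, 43.4 and 80.6 with Noggin, a difference of 1.14 ± 0.33 (limma, adjusted p = 0.121). Its groups did not overlap, in the opposite direction to fgfr4.S. The immediate early gene egr1.L, a target of MAPK signalling, had the largest difference of any listed gene, 2.47 ± 0.72, with signals of 563, 1053, 253 and 582 and 80.4, 19.4, 258 and 97.9. Sample 3 was the lowest of foxD5 alone and the highest of Noggin alone, and the difference did not pass (limma, adjusted p = 0.124). The Wnt list had a median of -0.01 over 47 members, with fzd7.L passing. The Notch list gave -0.01 over 22 and the posterior list -0.05 over 31, with 0 passing in limma by their brightest probe sets. In the Notch list hes5.10.L, for a Hes repressor, had signals of 117, 122, 239 and 184 with foxD5 and 338, 439.7, 239 and 312 with Noggin and a difference of -0.97 ± 0.31 (limma, adjusted p = 0.163). In the posterior list cyp26a1.L, for the enzyme that breaks down retinoic acid, had 64.5, 98.5, 71.1 and 45.6 with foxD5 and 37.1, 21.8, 9.12 and 29.4 with Noggin, without overlap, and a difference of 1.04 ± 0.26 (limma, adjusted p = 0.0812). The dim hoxa11.S differed by -0.73 ± 0.22.

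Genes of glycolysis and low oxygen had 25 of 32 members above 0 and a median of 0.22. One passed, pdk1.S, for a kinase that holds back pyruvate dehydrogenase, with signals of 317, 310.4, 316 and 364 with foxD5 and 147, 116, 134 and 136 with Noggin. Both groups were tight, and the lowest array of foxD5 alone was over 2 times as bright as the highest of Noggin alone. The difference was 1.19 ± 0.18 (limma, adjusted p = 0.0171). A second probe set gave 1.14 ± 0.21 and passed, and the remaining dim one gave -0.10 ± 0.28. The homeolog pdk1.L, with mean signals of 32.4 and 36.5, differed by -0.30 and did not pass (limma, adjusted p = 0.659). Against 645 and 487 of all 7531 genes, 6 members were higher with foxD5 and 0 with Noggin at an unadjusted p under 0.05. Among them hk1.L, a hexokinase, had signals of 304, 217, 435 and 244 with foxD5 and 115, 90.3, 40.7 and 131 with Noggin, a difference of 1.51 ± 0.45 (limma, adjusted p = 0.127). For gapdh.L, the glyceraldehyde phosphate dehydrogenase, signals were 213, 309, 291 and 363 with foxD5 and 77.4, 119, 181 and 163 with Noggin, and the difference was 1.05 ± 0.31 (limma, adjusted p = 0.127). The groups did not overlap for either gene, and neither passed.

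The other 8 arrays of the series place each of the 80 probe sets between the treatments. For each, the mean of a further group was put on a line on which 0 is the level of Noggin alone and 1 that of foxD5 alone, on the log2 scale. These places are descriptions with no test, and they use the level of the groups compared as their ends. The caps with both foxD5 and Noggin lay nearer to Noggin alone for 64 of the 80 and nearer to foxD5 alone for 16, with a median place of 0.179. Untreated caps lay nearer to foxD5 alone for 54 and nearer to Noggin alone for 26, with a median of 0.619.

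For 51 of the 80, untreated caps were on the side of foxD5 alone and caps with both on the side of Noggin alone. These probe sets thus divided the series by culture and, equally, by set of siblings. The untreated caps are siblings of foxD5 alone and the caps with both are siblings of Noggin alone. The part of culture and that of clutch therefore cannot be told apart. The group held pim1.L, fzd7.L, cdh3.S, bmpr1a.L, ccne1.L, rbm7.L and zbtb33.S. For fzd7.L untreated caps were at 0.838 and caps with both at 0.110. For pim1.L they were at 0.681 and 0.254, with mean signals of 113 ± 24 in untreated caps and 253 ± 62.5 in caps with both (SD, n = 4).

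For 13 of the 80 the series divided by foxD5, with untreated caps nearer to Noggin alone and caps with both nearer to foxD5 alone, across both sets of siblings. The named genes among them were hmox1.L, dhcr7.S, nradd.L and hes7.2.L, higher with foxD5, and grhl3.L, fgfr4.S, rassf3.S, klf2.S and tgif2.S, lower with it. The last encodes a homeobox repressor of the TGF-beta pathway and was named after its values were seen. For hmox1.L mean signals were 169.9 ± 112 in untreated caps and 443 ± 244 in caps with both (SD, n = 4), against 492 ± 159 in foxD5 alone and 121 ± 79.7 in Noggin alone. For dhcr7.S they were 33.1 ± 12.2 and 121 ± 44.0, against 105 ± 30.1 and 22.8 ± 10.1. For nradd.L caps with both, at 416 ± 61.5, were above foxD5 alone, at 291 ± 76.7, and untreated caps, at 76.4 ± 18.6, below Noggin alone, at 119 ± 52.4. For fgfr4.S the caps with both were at 43.8 ± 12.9 and the untreated caps at 144 ± 41.6, against 38.5 ± 14.4 in foxD5 alone. For grhl3.L the caps with both were midway, at a place of 0.518.

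In a further 13 both other groups lay nearer to Noggin alone, and in 3 both lay nearer to foxD5 alone. The first held vim.L, cul3.S, gkap1.L and 1 probe set of pdk1.S, the second pygm.S, slc25a29.L and kank2.L. Places were divided at 0.5, and untreated caps were about midway for cul3.S (0.483), gkap1.L (0.482) and pygm.S (0.533). For vim.L the means were 239 ± 44.0 in foxD5 alone, 120.2 ± 21.2 in untreated caps, 146 ± 28.9 in caps with both and 94.9 ± 29.2 in Noggin alone (SD, n = 4). Over the 2086 probe sets with an unadjusted p under 0.05 the counts were 1114 divided by culture, and equally by set of siblings, and 252 by foxD5. In 496 both other groups lay nearer to Noggin alone, and in 224 both lay nearer to foxD5 alone.

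**Figure D5:**
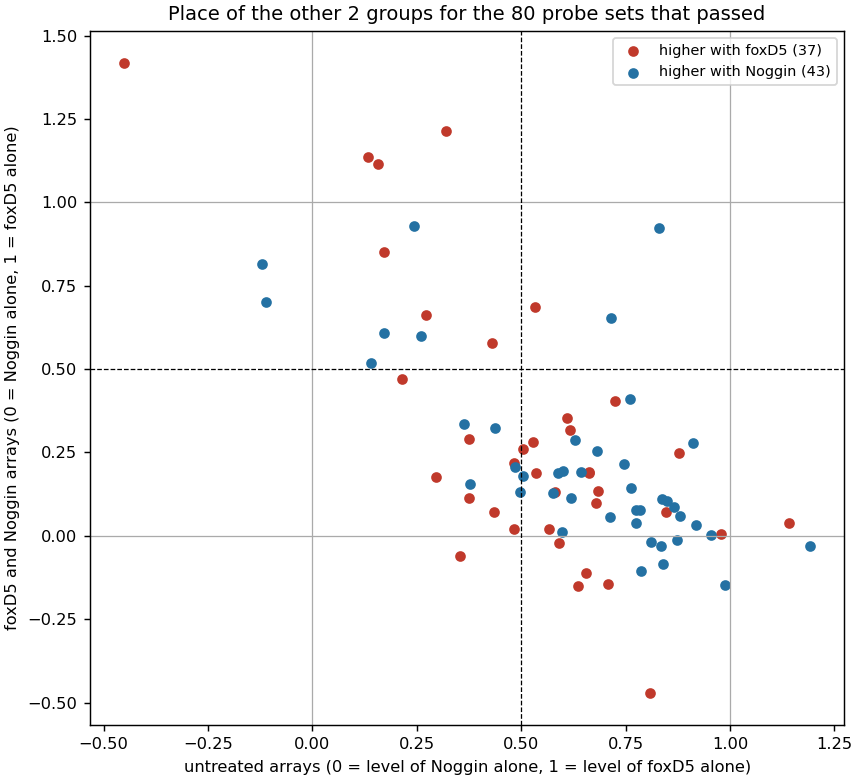
Place of the untreated arrays (horizontal) and of the arrays with both foxD5 and Noggin (vertical) for the 80 probe sets that passed, on a scale where 0 is the mean log2 level of Noggin alone and 1 that of foxD5 alone. Most points, 51 of 80, lie in the lower right, divided by culture and equally by set of siblings. A further 13 lie in the upper left, divided by foxD5.

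Measured beside the same untreated arrays, each treatment gave its own list of calls in the same fit. FoxD5 alone differed from untreated caps in 49 probe sets (0.316%) and Noggin alone in 1 (0.00646%), by limma at an adjusted p of 0.05 or less. These counts are not of like precision and do not rank the treatments. Untreated caps are siblings of foxD5 alone, and the fit used their correlation of 0.364, but they are not labelled as siblings of Noggin alone. Both share the untreated arrays, and values are set side by side for single genes only. For grhl3.L the log2 difference from untreated caps was -1.19 with foxD5 and 0.19 with Noggin. For tfap2a.L, an AP-2 factor of the epidermis, it was -1.44 with foxD5 and -0.65 with Noggin, and the difference between the treatments was -0.79 ± 0.31 (limma, adjusted p = 0.257). For fgf8.L it was 1.99 with foxD5 and 0.59 with Noggin, and for cdca7.L -0.01 and 1.3.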

How the data were processed

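Signals of 16 single-colour arrays were used, 8 of them in the comparison. The deposited values are intensity on a linear scale, 1 per probe set, and per the labels and file headers the software that made them is not given in the sources used here. After trimming 2% at either end, array means over the tested probe sets were 149 to 150, so a common scale was set before deposit.

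Values were taken as log2(signal + 16) and quantile normalised over the 16 arrays, with no filter on low signal. R 4.3.3 and limma 3.58.1 fitted 4 group means with empirical Bayes moderation, 12 residual degrees of freedom and siblings correlated at 0.364 by duplicateCorrelation. The contrast was foxD5 alone minus Noggin alone, two-sided, adjusted by Benjamini and Hochberg over 15491 probe sets. The platform annotation gave 1 symbol for 9304 probe sets, and 9227 were found by Entrez identifier among RefSeq genes. In each culture 1 injected sample carries no number and was taken as sample 1, the number left. Whether numbered samples came from separate clutches is not stated, so p values reflect only how far these samples spread, which may be technical. The number of arrays limits the precision.

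The comparison, the lists and the settings were chosen with earlier results of these data known. Named genes were the 12 largest differences in each direction among genes that passed without overlap, passing list members or else the 2 with the smallest p, the neural fate list, and homeologs. Other members are named after their values were seen. On data simulated for this comparison with 200 changed of 15491 probe sets, the fit recovered 57.5% at a log2 change of 1 and 96.5% at 2, and 2.84% of its calls were false. The 2 simulations gave all groups the same spread for a probe set and no outlying sample. In the data, levels of the non-neural ectoderm factors spread over 6.12 to 6.48 in foxD5 alone and 6.27 to 7.86 in Noggin alone. The rates are therefore not measured for the calls made here. Alternatives were no normalisation, centring on the median, pseudocounts of 1 and 64, a filter on the mean, an intensity trend, array weights, no sibling block, the 8 arrays alone, a replicate block, and leaving out each array. Leaving out sibling pair 2 lacking Noggin was an alternative chosen after seeing the data.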

Additional observations from a re-analysis of the deposited data

Results flagged for a closer look

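In some groups 1 of the 4 samples lay far from the others, by a ratio of its gap to the nearest sample over the group's whole range above Dixon's 95% critical value, on the normalised log2 scale. This was so for 22 of 352 groups checked (6.25%), where chance gives about 1 in 20. No explanation of these is offered.

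Among the samples of foxD5 alone the ratio was 0.860 for nradd.L, with sample 4 highest at 406, and 0.841 for cdh3.S, with sample 2 highest at 437. It was 0.831 for ventx2.2.L, with sample 1 lowest, 0.837 for sox11.S, 0.948 for lhx5.S, with sample 1 highest at 172, 0.853 for kank2.L and 0.938 for tekt2.L, the last 2 under 16 on every array. Of the lists, the mean level of muscle genes gave 0.836, with sample 2 highest at 5.06. Posterior genes gave 0.879, with sample 1 lowest at 4.97, and animal cap ectoderm markers 0.921, with sample 1 lowest at 8.72.

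Among the samples of Noggin alone the ratio was 0.922 for ventx2.2.L, with sample 1 highest at 106, 0.923 for paics.1.L, 0.892 for grem1.L, 0.960 for myl1.S and 0.948 for krt19.L, with sample 2 lowest at 129. It was 0.885 for ag1.S, with sample 2 highest at 324, 0.939 for tekt2.S, 0.898 for tfdp1.L and 0.899 for zfp36l2.S, with sample 2 highest at 454. A ratio of 0.870 was found for the bmpr1a.L probe set with a difference of -0.93, which did not pass. The mean level of cement and hatching gland genes gave 0.885, with sample 2 highest at 6.03, and that of posterior genes 0.842, with sample 2 lowest at 4.81. Sample 2 also had the highest or lowest mean level of its group in the non-neural ectoderm, keratin and neural fate lists, whose ratios were not above the critical value.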

How the results depend on the processing

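All 80 probe sets kept their direction under each setting in which they were fitted. Their choice nearly fixed this, since 78 had groups that did not overlap, so it is no sign of stability. The number passing moved widely, and the cause was not tested. Against 80 (37 higher with foxD5, 43 with Noggin), limma called 40 with values as deposited (20 and 20), 23 with arrays centred on the median (7 and 16), 1 with a pseudocount of 1 (0 and 1) and 275 with a pseudocount of 64 (149 and 126). It called 178 where only probe sets brighter than the median on average were tested (87 and 91), 130 with an intensity trend (63 and 67), 188 with array weights (97 and 91), 89 without the sibling block (44 and 45) and 46 without sibling pair 2 lacking Noggin (23 and 23), of which 40 were among the 80. It called 0 on the 8 arrays of the comparison alone and 0 with the replicate block on those 8 arrays, where 1950 and 1703 had an unadjusted p under 0.05. The labels do not link numbers across the cultures, so samples of the groups compared share only a number. Leaving out 1 array gave 1 to 149 calls, 0 to 76 higher with foxD5 and 1 to 73 higher with Noggin. Among the 53 genes, pim1.L passed in 17 of 19 settings, all but the 8 arrays alone (adjusted p = 0.0734, limma) and the replicate block (0.182). Low signals compress differences after 16 is added.

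No named gene that passed changed direction, which their selection nearly fixed. Some differences that did not pass did so, those of ag1.L and ag1.S from -0.63 and -0.58. With values as deposited, the sign was opposite for foxa4.S (0.0206) and gmnn.S (-0.0004). With a pseudocount of 64, the sign was opposite for foxa4.S (0.0057). With array weights, the sign was opposite for foxa4.S (0.0572), foxd4l1.1.S (-0.0062), gmnn.L (-0.113), gmnn.S (-0.0766), myl4.S (-0.0112), sox15.L (0.0084) and zic2.L (-0.091). Without sibling pair 2 lacking Noggin, the sign was opposite for foxa4.S (0.0482), myl4.S (-0.0905) and zic2.L (-0.0424). With arrays centred on the median, the sign was opposite for gmnn.L (-0.0211) and gmnn.S (-0.088). Leaving out each array in turn gave -0.9415 to 0.0595 for ag1.L, -0.8297 to 0.0517 for ag1.S, -0.081 to 0.1449 for bmpr1a.S, -0.0224 to 0.1723 for cdh3.L, -0.2348 to 0.1506 for foxa4.S, -0.3441 to 0.6391 for foxd4l1.1.S, -0.2835 to 0.2395 for gmnn.L, -0.2702 to 0.1654 for gmnn.S and -0.3136 to 0.0015 for irx2.L. It gave -0.0973 to 0.2137 for irx3.L, -0.0725 to 0.1573 for myl4.S, -0.2273 to 0.0299 for pax2.L, -0.1027 to 0.0739 for sox15.L, -0.0898 to 0.4747 for sox2.L, -0.4087 to 0.0239 for sox3.L, -0.0027 to 0.4822 for tnnc1.L, -0.2325 to 0.3282 for zic2.L and -0.3322 to 0.0366 for zic2.S.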
